A study of Mus musculus with 6 samples.

Results

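Complement is a plasma and tissue defence cascade in which proteases cleave C3 so that its fragment coats a target. The classical route starts when C1q binds and its partner proteases C1r and C1s become active, with C1s cleaving C4 and C2. The lectin route uses collectins and MASP proteases, and the alternative route builds a C3-cleaving enzyme from C3 fragments and factor B. Host cells hold the cascade in check with secreted inhibitors, such as C1 inhibitor and clusterin, and with surface proteins such as CD55 and CD59. Endothelial cells face plasma directly and are known to make several of these proteins themselves, more so under inflammatory stimuli.

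The genes described are 9 complement genes, taken as a list of gene names: 5 activators (C3, C4b, Cfb, C1ra and C1s1) and 4 inhibitors or regulators (Serping1, Clu, Cd55 and Cd59a). They are 9 of the 52636 gene identifiers in the deposited table. All 9 passed the filter on low counts, which kept 13901 genes.

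The cells were endothelial cells isolated from mouse brain and cultured, with RNA sequenced after a sort for live, CD45-negative cells carrying CD31 and VE-cadherin. The knockout group (3 libraries) is labelled a double knockout of Erg and Fli1, ETS-family transcription factors of endothelium, and the control group (3 libraries) is labelled wild type. Both groups had been given 4-OHT (4-hydroxytamoxifen, used to start the gene deletion). The sources used here do not give the Cre line, strain or age of the mice, or say which libraries share a mouse or a culture. The p-values thus rest on library-to-library spread alone, which may be technical. Values are CPM, which are counts scaled to a common library size after TMM (a correction for library composition), with SD over n = 3 libraries. In bulk RNA, fewer cells of a type and less RNA per cell cannot be told apart.

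The libraries held 17274639 to 19410458 counts. Erg had 70.2, 88.3 and 109 CPM in knockouts 1 to 3, against 656, 223 and 610 CPM in controls 1 to 3 (edgeR adjusted p = 0.0137, with a p under 0.05 counted as a change). That call was lost without control 3 or any 1 knockout (edgeR adjusted p up to 0.0691) and held without control 2 (log2 fold change -2.86). Fli1 had 57.0, 68.5 and 66.7 CPM in knockouts, against 82.9, 64.2 and 92.1 CPM in controls, with overlapping groups (edgeR adjusted p = 0.181). Without control 2, Fli1 was lower in each knockout (log2 fold change -0.48, edgeR adjusted p = 0.00346). The labels do not name the deleted exons, and transcripts that lack them may still be counted. Control 2 stood apart from the other controls: 10 fibroblast markers summed to 1645 to 2865 CPM in knockouts, against 409, 12370 and 1100 CPM in controls 1 to 3. A like pattern held for 10 pericyte and smooth muscle markers, at 770 to 1564 CPM in knockouts, against 470, 4091 and 581 CPM in controls 1 to 3. The 10 endothelial markers summed to 3849 to 4683 CPM in knockouts, against 15220, 6612 and 15250 CPM in controls 1 to 3. Xist, expressed from the inactive X of female cells, was at 0.154, 431 and 573 CPM in knockouts, against 5.32, 611 and 3.84 CPM in controls, so the sexes of the libraries differed within both groups. As control 2 stood apart in the marker sums, results for the 9 genes are given also without it. Controls 1 and 3 were both low in Xist, whereas knockouts 2 and 3 were high. Sex and genotype thus partly coincide without control 2, and their parts were not tested there.

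Most activators were far higher in knockouts, and the inhibitors split. Of the 5 activators, 3 rose (C3, Cfb and C1ra), 0 fell and 2 did not pass (C4b and C1s1) in edgeR's quasi-likelihood test at an adjusted p under 0.05. Cfb, at 1 or 2 counts in each control, passed the low-count filter only through the knockouts, so the filter set its direction. C4b and C1s1 had 0 to 2 counts in controls 1 and 3 and also needed the knockouts to pass the filter. Of the 4 regulators, 1 rose (Clu), 1 fell (Cd55) and 2 did not pass (Serping1 and Cd59a). Among all genes tested, 24.7% were called, 13.1% as higher and 11.7% as lower. The median log2 fold change was 3.61 for the activators and -0.12 for the regulators, against 0.003 over all genes. The regulators' median was positive with limma voom (0.66). For the activators, 0 were lower at an unadjusted p under 0.05, and likewise 0 were lower with DESeq2 (3 higher) and with limma voom (4 higher). Without control 2, all 5 activators rose, and 2 regulators rose (Clu and Serping1) and 1 fell (Cd55), when 50.3% of 14178 genes were called (25.5% higher and 24.8% lower). C4b, Cfb and C1s1 then passed the low-count filter only through the knockouts. The groups did not overlap for 7 of the 9 genes (6 higher and 1 lower in knockouts), as for 46.3% of all genes. Without control 2 none of the 9 overlapped (7 higher and 2 lower), against 69.9% of all genes (37.6% higher and 32.3% lower). The median was then 6.23 for the activators, with genes of few control counts at their count ratio or bound, and 1.19 for the regulators. The value of 6.23 is that of C4b, which rests on 2 control counts.

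**Figure D1:**
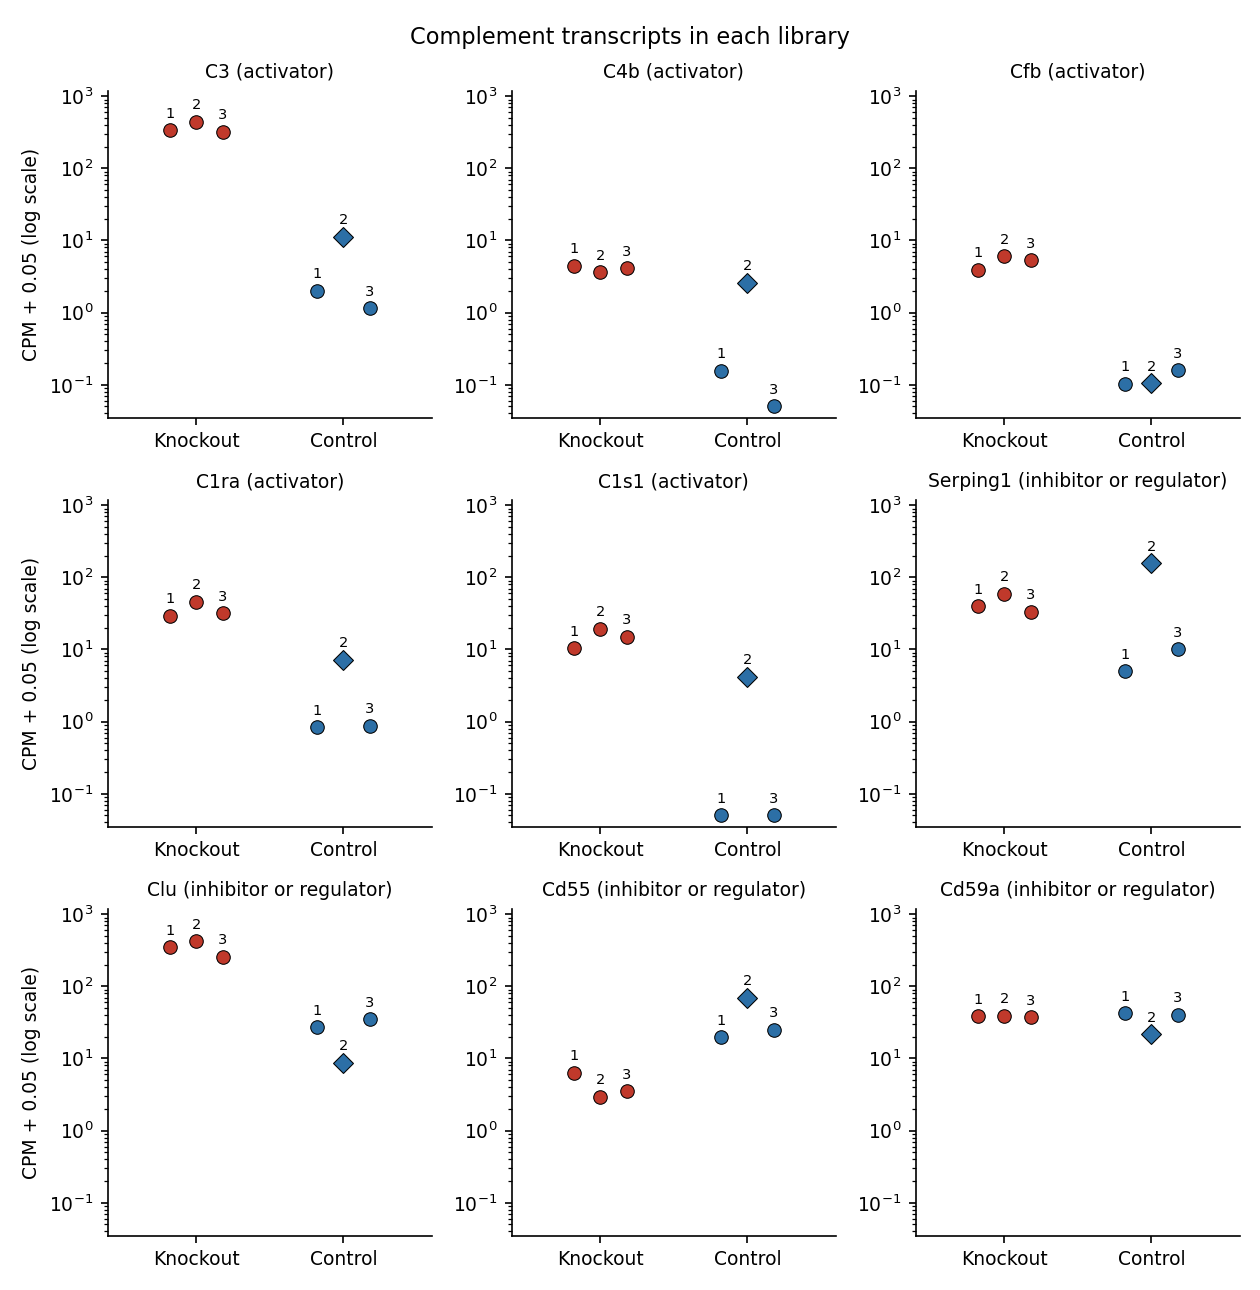
CPM of each complement gene in every library, plotted as CPM + 0.05 on a log axis, with the 3 knockout libraries in red at the left and the 3 control libraries in blue at the right of each panel (numbers are replicate numbers, and the diamond is control 2). All 5 activators and Clu are higher in each knockout than in each control, Cd55 is lower, and Serping1 and Cd59a overlap between groups with control 2 included.

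C3, the central protein that every route cleaves, had the largest log2 fold change of the 9 genes with all libraries. C3 (ENSMUSG00000024164; GRCm38 chromosome 17, 57203970 to 57228136, minus strand) had 340, 441 and 323.5 CPM in knockouts 1, 2 and 3, against 1.95, 11.3 and 1.10 CPM in controls 1, 2 and 3. Every knockout lay far above every control, and control 2 was the highest control. The means were 368 ± 63.7 CPM in knockouts and 4.77 ± 5.64 CPM in controls, a log2 fold change of 6.27 (standard error 0.97, edgeR adjusted p = 0.00898). Without control 2 the log2 fold change was 7.87 (standard error 0.26, edgeR adjusted p = 3.92e-06), and the call held without any 1 of the 6 libraries (edgeR adjusted p at most 0.0414). C3 made up 85.3% to 87.6% of the summed activator CPM in knockouts, and 67.3%, 44.8% and 54.1% of it in controls 1, 2 and 3.

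The 250 bases before the RefSeq start of C3 (GRCm38.p6, chr17:57228137-57228386, minus strand) are shown because C3 had the largest log2 fold change with all libraries, with capitals marking the match to the C/EBP motif TTGCNNAA.
C3: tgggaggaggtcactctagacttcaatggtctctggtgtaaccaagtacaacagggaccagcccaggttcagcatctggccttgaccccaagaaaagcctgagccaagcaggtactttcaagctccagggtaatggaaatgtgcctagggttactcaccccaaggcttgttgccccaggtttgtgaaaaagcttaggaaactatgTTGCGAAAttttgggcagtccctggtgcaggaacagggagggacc
The match TTGCGAAA lies at -45 to -38 from the start. Of 32851 promoter windows of the same 250 bases, 9.56% held a match to this motif on either strand. The same window was searched on both strands for the ETS hexamers CGGAAG and AGGAAG (in 13.6% and 29.5% of windows), the STAT motif TTCNNNGAA (7.02%) and the NF-kB motif (7.25%), and these letters were not in it.

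Cfb encodes factor B, which joins C3 fragments to form the alternative-route enzyme. Cfb (ENSMUSG00000090231; GRCm38 chromosome 17, 34856374 to 34862518, minus strand) had 3.85, 6.03 and 5.29 CPM in knockouts, against 0.0527, 0.0545 and 0.1096 CPM in controls. In counts this was 75, 108 and 95 in knockouts against 1, 1 and 2 in controls, and control 2 was no higher than the others. The log2 fold change was 6.01 (standard error 0.37, edgeR adjusted p = 9.91e-04), and the call held when any 1 library was left out. Against controls 1 and 3 alone, which held 3 counts, the ratio of levels was 62.3 (21.1 to 304, 95% interval for counting error). Another annotated gene model, Gm20547, shares 79.5% of the Cfb exon bases on the same strand and was at 0 counts, so reads from the shared exons may not be in these values.

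C1ra and C1s1 encode the proteases of the C1 complex and lie 6901 bases apart on chromosome 6, on opposite strands. C1ra (ENSMUSG00000055172; 124512405 to 124523443) had 29.5, 45.5 and 31.6 CPM in knockouts, against 0.790, 7.13 and 0.822 CPM in controls. C1s1 (ENSMUSG00000038521; 124530345 to 124542359) had 10.3, 19.2 and 14.9 CPM in knockouts, against 0, 4.14 and 0 CPM in controls. In either gene each knockout exceeded each control, knockout 2 was the highest library, and control 2 was the highest control, with all 76 control counts of C1s1. Of all genes tested, 25.0% were higher in each knockout than in each control. C1ra had a log2 fold change of 3.61 (standard error 0.91, edgeR adjusted p = 0.0379), and C1s1 one of 3.42 (standard error 1.54, edgeR adjusted p = 0.161). Without control 2 that of C1ra was 5.42 (edgeR adjusted p = 1.54e-05), whereas without any other single library C1ra lost its call (edgeR adjusted p 0.0808 to 0.123). Against controls 1 and 3, both at 0 counts, C1s1 was at least 182-fold higher, taking 3 counts over these controls as the floor. The fibroblast marker sum was also highest in control 2, and its part in these values was not tested.

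C1s1 has 2 RefSeq starts, and the 250 bases before the upstream start (GRCm38.p6, chr6:124542360-124542609, minus strand) are shown for comparison with C3, as those of an activator at 0 counts in controls 1 and 3, with capitals marking the motif matches.
C1s1: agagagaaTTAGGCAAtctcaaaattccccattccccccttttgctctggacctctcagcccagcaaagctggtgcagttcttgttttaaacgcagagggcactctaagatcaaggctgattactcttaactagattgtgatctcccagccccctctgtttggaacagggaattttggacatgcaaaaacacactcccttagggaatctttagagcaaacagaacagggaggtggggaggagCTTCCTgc
AGGAAG occurs on the reverse strand as CTTCCT at -8 to -3, and TTGCNNAA occurs on the reverse strand as TTAGGCAA at -242 to -235. The window before the other start overlaps this one and held the same CTTCCT, there at -46 to -41. The RefSeq window of C1ra, which lies mostly inside the GENCODE gene, held none of the 5 motifs searched. Windows were in the RefSeq tables used here for 5 of the 9 genes (C3, C1ra, C1s1, Cd55 and Cd59a).

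C4b, encoding the C4 protein that C1s cleaves, was low throughout. C4b (ENSMUSG00000073418; GRCm38 chromosome 17, 34728380 to 34743882, minus strand) had 4.42, 3.57 and 4.07 CPM in knockouts, against 0.105, 2.56 and 0 CPM in controls. The groups did not overlap, yet control 2 came close to the knockouts, and the log2 fold change of 2.17 did not pass (standard error 1.28, edgeR adjusted p = 0.265). Controls 1 and 3 held 2 counts together, for a ratio of 75.0 (20.5 to 623, 95% interval for counting error, and edgeR adjusted p = 1.42e-04 without control 2).

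Near-identical copies limit these counts. Of the 50-base transcript sequences of C1ra, 50.8% also occur in other genes, mostly in its neighbour C1rb, and the shares were 34.6% for C4b (with C4a), 21.9% for C1s1 (with C1s2), 8.0% for Cd55 (with Cd55b) and 3.87% for Cd59a (with Cd59b). The copies themselves were low. C1rb and Cd55b had 0 counts in every library, C1s2 had 1 to 5 counts and Cd59b had 0 to 6 counts. C4a had 0.874, 0.781 and 1.504 CPM in knockouts, against 1.32, 1.63 and 1.64 CPM in controls (log2 fold change -0.54, standard error 0.31, edgeR adjusted p = 0.256). An opposite-strand gene model, Gm16567, covers 18.4% of the C1s1 exon bases and was at 0 counts. C3, Serping1 and Clu share no such sequence with other genes.

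Clu was the regulator that rose. It encodes clusterin, a secreted chaperone that blocks assembly of the membrane attack complex. Clu (ENSMUSG00000022037; GRCm38 chromosome 14, 65968483 to 65981547, plus strand) had 347, 423 and 258 CPM in knockouts, against 27.2, 8.66 and 34.8 CPM in controls. The groups were well apart, and here control 2 was the lowest control, at 0.279 of the mean of the others. The log2 fold change was 3.86 (standard error 0.55, edgeR adjusted p = 0.00735), and 3.43 without control 2 (edgeR adjusted p = 3.97e-05). The call held without any 1 library (edgeR adjusted p at most 0.0369).

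Cd55 moved the other way. It encodes decay-accelerating factor, a surface protein that breaks up the C3-cleaving enzymes. Cd55 (ENSMUSG00000026399; GRCm38 chromosome 1, 130439027 to 130462744, minus strand) fell to 6.27, 2.90 and 3.45 CPM in knockouts, against 19.7, 69.4 and 24.8 CPM in controls. Each knockout lay below each control, as for 21.3% of all genes tested, and control 2 was the highest library. The log2 fold change was -3.17 (standard error 0.61, edgeR adjusted p = 0.0171). Without control 2 it was -2.43 (standard error 0.29, edgeR adjusted p = 5.21e-04), and the call was lost without knockout 2 or knockout 3 (edgeR adjusted p = 0.0799 and 0.0766). Its promoter window, before its single RefSeq start (GRCm38.p6, chr1:130462745-130462994, minus strand), is shown for comparison with those of the genes that were higher, and it held none of the 5 motifs, so it has no capitals.
Cd55: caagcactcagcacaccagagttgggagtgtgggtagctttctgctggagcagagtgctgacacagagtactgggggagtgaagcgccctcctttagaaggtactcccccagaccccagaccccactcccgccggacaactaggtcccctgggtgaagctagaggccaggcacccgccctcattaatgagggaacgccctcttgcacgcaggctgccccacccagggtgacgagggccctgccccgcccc

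Serping1 encodes C1 inhibitor, which inactivates C1r, C1s and MASP proteases. Serping1 (ENSMUSG00000023224; GRCm38 chromosome 2, 84765387 to 84775444, minus strand) had 39.8, 58.9 and 33.4 CPM in knockouts, against 4.95, 156 and 10.1 CPM in controls. Control 2 was the highest library, at 3.54 times the knockout mean and 20.7 times the mean of controls 1 and 3, so the groups overlapped. The log2 fold change was -0.37 (standard error 1.24, edgeR adjusted p = 0.852) with all libraries, and 2.52 (standard error 0.35, edgeR adjusted p = 0.00110) without control 2. Its control mean thus rested on the library with the highest fibroblast and pericyte marker sums, whose part in the value was not tested.

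Cd59a, encoding the surface inhibitor of the membrane attack complex, differed least. Cd59a (ENSMUSG00000032679; GRCm38 chromosome 2, 104095801 to 104115354, plus strand) had 38.4, 39.2 and 37.0 CPM in knockouts, against 42.1, 21.6 and 40.1 CPM in controls. The knockouts lay between control 2, the lowest, and the other controls. The log2 fold change was 0.14 (standard error 0.25, edgeR adjusted p = 0.717) and was -0.14 (standard error 0.06, edgeR adjusted p = 0.107) without control 2. Exact two-sided permutation tests on log2(CPM + 1) gave p = 0.1, the smallest that 3 against 3 libraries allow, for C3, C4b, Cfb, C1ra, C1s1, Clu and Cd55, and p = 0.5 for Serping1 and p = 1.0 for Cd59a.

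**Figure D2:**
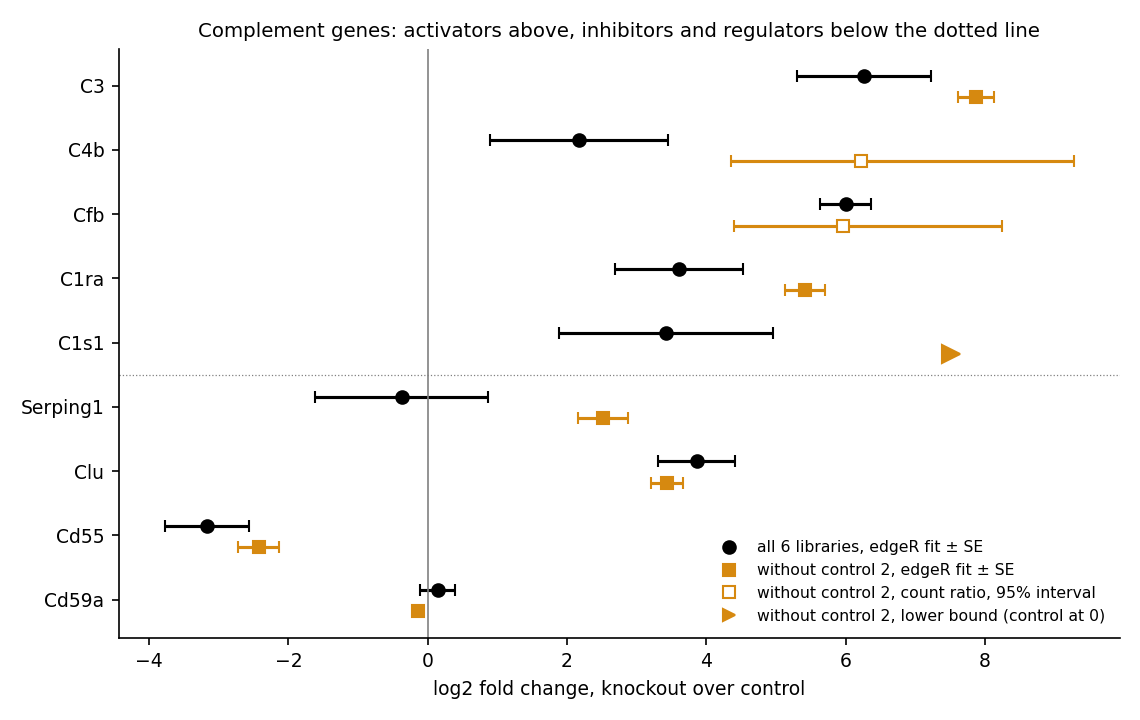
Log2 fold change of the knockout over the control for each complement gene, in black from all 6 libraries (± SE) and in orange without control 2 (filled squares ± SE, open squares count ratios with 95% counting intervals, and an arrowhead for the lower bound of C1s1). Removing control 2 moves C3, C4b, C1ra, C1s1 and Serping1 to higher values, Clu to a lower one, and leaves Cd55 below 0.

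Activator and regulator transcripts were also summed in each library, as a description with no test. Summed CPM of the 5 activators were 388, 515 and 379 in knockouts, against 2.90, 25.2 and 2.03 in controls. Summed CPM of the 4 regulators were 432, 524 and 332 in knockouts, against 94.0, 256 and 110 in controls. The activator sum divided by the regulator sum was 0.899 to 1.14 in knockouts, against 0.0308, 0.0984 and 0.0185 in controls 1, 2 and 3. Clu made up 77.7% to 80.7% of the regulator sum in knockouts, and 29.0%, 3.39% and 31.6% in controls 1, 2 and 3.

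Per kilobase of exon, the levels in knockouts ran in this order: Clu (99.7 ± 24.1 CPM per kb), C3 (71.6 ± 12.4), Cd59a (21.1 ± 0.614), Serping1 (18.9 ± 5.71), C1ra (11.9 ± 2.92), C1s1 (4.73 ± 1.43), Cfb (1.79 ± 0.391), Cd55 (0.867 ± 0.372) and C4b (0.706 ± 0.0748). In that order, Clu and C3, Cd59a and Serping1, Serping1 and C1ra, and Cd55 and C4b overlapped between libraries, and the other neighbours did not. In controls Serping1 (24.5 ± 36.9 CPM per kb) and Cd59a (19.1 ± 6.24) led, followed by Cd55 (7.82 ± 5.63) and Clu (6.85 ± 3.91), and all 5 activators were at or below 0.978 CPM per kb. Only Clu and C1ra were neighbours without overlap in the controls. The exon lengths include bases shared with other genes (79.5% of them for Cfb), and reads from shared sequence may not be counted. The places of Cfb, C1ra, C4b and C1s1 in both orders are therefore uncertain.

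Among 51 other complement genes, 17 passed the low-count filter, 3 rose and 3 fell, against 24.7% of all genes called. The median log2 fold change with all libraries was -0.16 in edgeR and 0.01 in limma voom. Without control 2, 7 rose and 3 fell in edgeR, against 50.3% of all genes called, and the median was -0.03. In the recognition, classical and lectin list, 6 of 17 were tested, 3 rose (Masp1, C2 and Colec11) and 0 fell in edgeR. The unadjusted p was under 0.05 for 5 higher and 0 lower genes, and DESeq2 and limma voom each called 5 higher and 0 lower. Masp1, encoding lectin-route proteases, had 108.5, 131 and 121 CPM in knockouts, against 15.6, 50.2 and 17.9 CPM in controls (log2 fold change 2.10, standard error 0.48, edgeR adjusted p = 0.0277, lost without any 1 library other than control 2, edgeR adjusted p up to 0.0959). C2, the protease that C1s cleaves together with C4, and Colec11, a collectin, were called at low levels and are named with their values already known. Each passed the low-count filter only through the knockouts, so the filter set its direction. C2 had 2.16, 2.68 and 2.34 CPM in knockouts, against 0, 0.327 and 0.164 CPM in controls (log2 fold change 3.82, edgeR adjusted p = 0.0162). That call was lost without control 3 or any 1 knockout (edgeR adjusted p up to 0.0693), and against controls 1 and 3 the ratio of C2 levels was 29.6 (9.91 to 145 for counting error). C2 lies 85 bases from Cfb, and 42.8% of its exon bases are shared with Gm20547. Colec11 had 1.64, 3.51 and 1.78 CPM in knockouts, against 0.0527, 0.272 and 0.1096 CPM in controls (log2 fold change 3.94, edgeR adjusted p = 0.00889), with a ratio of 28.5 (9.53 to 140 for counting error) against controls 1 and 3. The 3 C1q chain genes (C1qa, C1qb and C1qc), Mbl1 and Fcnb had 0 counts in each library, where 3 counts, the floor, correspond to 0.154 to 0.167 CPM.

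The alternative and terminal routes were sparse outside C3 and Cfb. Cfd, encoding the protease that cleaves factor B, had 0 counts in all 6 libraries. Cfp, encoding properdin, which stabilises the C3-cleaving enzyme, had 5.14, 2.79 and 4.73 CPM in knockouts, against 5.32, 6.26 and 5.43 CPM in controls (edgeR adjusted p = 0.278). Of the 7 terminal genes, C8g alone was tested, at 2.94 ± 0.307 CPM in knockouts and 3.02 ± 0.399 CPM in controls (edgeR adjusted p = 0.896). C8a, C8b and C9 were at 0 counts, and Hc (C5), C6 and C7 had at most 5 counts in a library.

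Among the other regulators, 6 of 15 were tested, of which Cr1l fell and 0 rose in edgeR, with 0 higher by unadjusted p and 0 higher in DESeq2 or limma voom. Over all genes, 24.7% were called, 11.7% as lower. Cr1l, encoding the rodent membrane regulator Crry, fell to 56.8, 53.5 and 60.2 CPM in knockouts, against 90.9, 68.9 and 90.3 CPM in controls (log2 fold change -0.55, standard error 0.12, edgeR adjusted p = 0.0270). That call was lost without any 1 library other than control 2 (edgeR adjusted p at least 0.0773). Cd46, Cfi, C4bp, Vtn and Csmd1 did not pass (edgeR adjusted p 0.0929 to 0.952). Vtn and Csmd1 had overlapping groups with all libraries and lay higher in each knockout than in controls 1 and 3, as did 37.6% of all genes. Both were called without control 2, when 50.3% of all genes were called, and both then passed the low-count filter only through the knockouts.

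**Figure D3:**
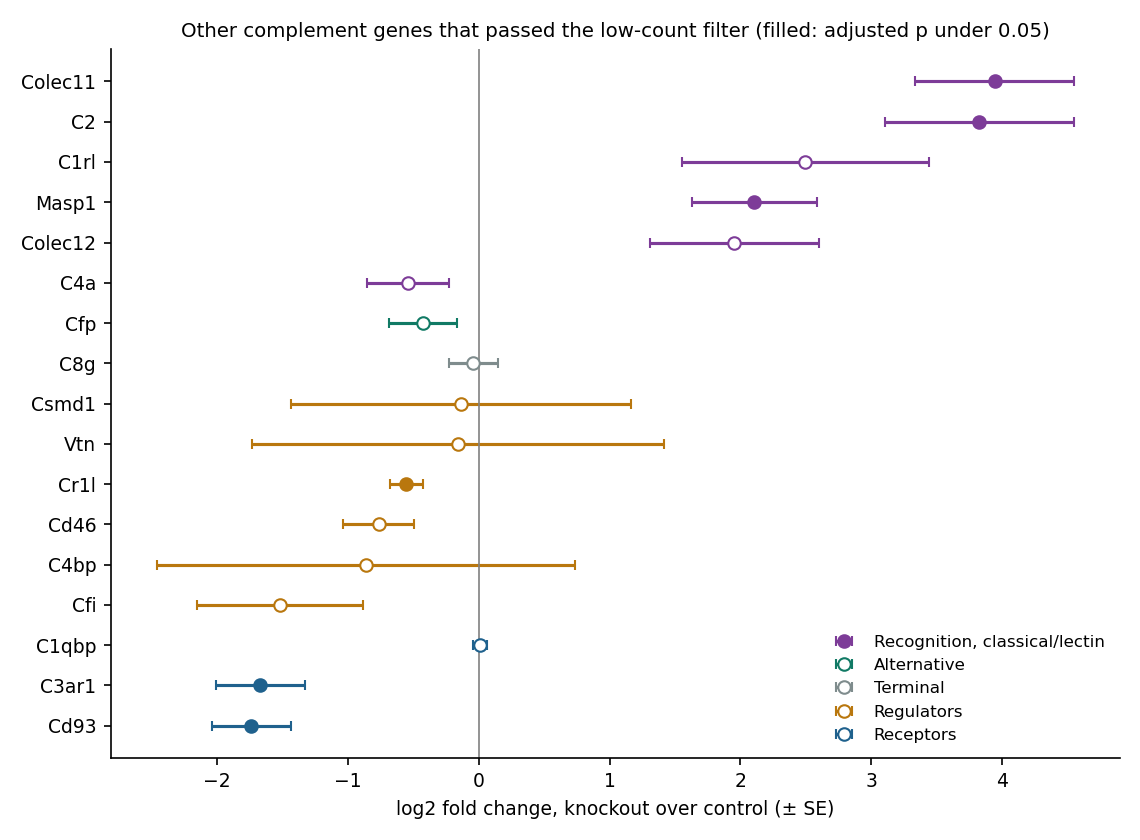
Log2 fold change of the knockout over the control (± SE, all 6 libraries) for the 17 other complement genes that passed the low-count filter, coloured by role, with filled points for an edgeR adjusted p under 0.05. The called genes above 0 are Colec11, C2 and Masp1, and those below 0 are Cr1l, C3ar1 and Cd93.

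Of 10 receptor genes, 3 were tested, 2 fell and 0 rose in edgeR, with 0 higher at an unadjusted p under 0.05 and 0 higher in DESeq2 or limma voom. The share called over all genes was 24.7%, with 11.7% lower. Cd93, an endothelial surface gene once proposed as a C1q receptor, fell to 688, 770 and 892 CPM in knockouts, against 3126, 1559 and 3140 CPM in controls (log2 fold change -1.74, standard error 0.30, edgeR adjusted p = 0.0126, and up to 0.0651 without knockout 1 or knockout 2). C3ar1, the C3a receptor, had 0.565, 0.391 and 0.334 CPM in knockouts, against 1.16, 1.85 and 1.15 CPM in controls (log2 fold change -1.67, edgeR adjusted p = 0.0201), and was picked out after its values were seen. It passed the low-count filter only through the controls, so the filter set its direction. The C3ar1 call was lost without control 3 or any 1 knockout (edgeR adjusted p up to 0.0882), and it stood without control 2 (log2 fold change -1.44, edgeR adjusted p = 0.0139). C1qbp had 72.7 ± 2.49 CPM in knockouts and 72.3 ± 1.97 CPM in controls (log2 fold change 0.01, edgeR adjusted p = 0.932). C5ar1 and C5ar2, the C5a receptors, had at most 3 counts in a library.

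Transcription factors known to act on complement promoters had positive log2 fold changes in 9 of 10 cases, against 6997 of all 13901 genes tested. Of the 10 tested, 4 rose (Rel, Irf1, Nfkb1 and Relb) and 0 fell in edgeR, with 8 higher and 0 lower by unadjusted p, 8 higher and 0 lower in DESeq2, and 6 higher and 0 lower in limma voom. Of all genes, 13.1% were called higher and 11.7% lower. The median log2 fold change of the 10 factors was 0.72. Without control 2, 8 rose and 1 fell (Rela), when 50.3% of all genes were called. Rel, an NF-kB subunit gene, had 35.2, 38.4 and 35.9 CPM in knockouts, against 6.95, 9.58 and 5.15 CPM in controls (log2 fold change 2.33, standard error 0.23, edgeR adjusted p = 0.00286). Irf1, an interferon response factor, had 70.9, 68.0 and 83.4 CPM in knockouts, against 36.0, 18.5 and 34.2 CPM in controls (log2 fold change 1.33, edgeR adjusted p = 0.0190, and up to 0.0724 with 1 library left out). Nfkb1 had 214 ± 4.85 CPM in knockouts and 147 ± 3.16 CPM in controls (log2 fold change 0.54, edgeR adjusted p = 0.00287). Relb had 47.9 ± 1.64 CPM in knockouts and 35.3 ± 1.72 CPM in controls (log2 fold change 0.44, edgeR adjusted p = 0.00939, and 0.0596 without control 3). The C/EBP genes did not pass: Cebpb had 28.7, 33.3 and 33.8 CPM in knockouts, against 2.32, 13.1 and 3.40 CPM in controls (edgeR adjusted p = 0.0511, and 1.46e-05 without control 2).

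Markers of other cell types were set beside these results. Of the 10 microglia and macrophage markers, Tyrobp was at 0 counts, Ptprc, Cx3cr1 and P2ry12 were at or below 0.211 CPM, and the list summed to 3.29 to 6.53 CPM in knockouts, against 4.79, 165 and 14.7 CPM in controls 1, 2 and 3. Tmem119 gave 160 of the 165 CPM in control 2. The 5 hepatocyte markers summed to at most 0.163 CPM, with Alb, Apoa1 and Serpina1a at 0 counts. The 8 astrocyte markers summed to 59.4 to 78.6 CPM in knockouts, against 113, 312 and 163 CPM in controls 1, 2 and 3. Of 5 tested in edgeR, 0 rose and 1 fell, and without control 2, 3 rose and 2 fell (50.3% of all genes called). The 6 oligodendrocyte markers summed to at most 5.25 CPM (Mbp higher, edgeR adjusted p = 0.00803). The 5 neuron markers summed to 52.7 to 77.4 CPM in knockouts, against 14.3, 67.3 and 21.6 CPM in controls. Of the 10 fibroblast markers, 9 were higher in control 2 than in controls 1 and 3. In knockouts, 1 of 9 tested rose (Pdgfra) and 0 fell in edgeR, against 24.7% of all genes called. Lower genes numbered 2 at an unadjusted p under 0.05 in edgeR, 3 in DESeq2 and 0 in limma voom. Without control 2, 4 rose (Dcn, Lum, Pdgfra and Fbln1) and 1 fell (Col1a1). Both directions together were near the share over all genes, of which 50.3% were then called. More of the 9 tested rose than fell, against 25.5% higher and 24.8% lower over all genes. Lum, at 1 and 2 counts in controls 1 and 3, then passed the low-count filter only through the knockouts. Dcn, a proteoglycan gene on the list, had 1421, 2110 and 1343 CPM in knockouts, against 3.95, 317 and 6.96 CPM in controls (edgeR adjusted p = 0.156), and its log2 fold change without control 2 was 8.19 (edgeR adjusted p = 7.79e-06). Col1a1 had 235, 104 and 110 CPM in knockouts, against 214, 5489 and 628 CPM in controls (edgeR adjusted p = 0.0830). The part of fibroblast-type RNA in the complement levels of the knockouts was not tested.

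**Figure D4:**
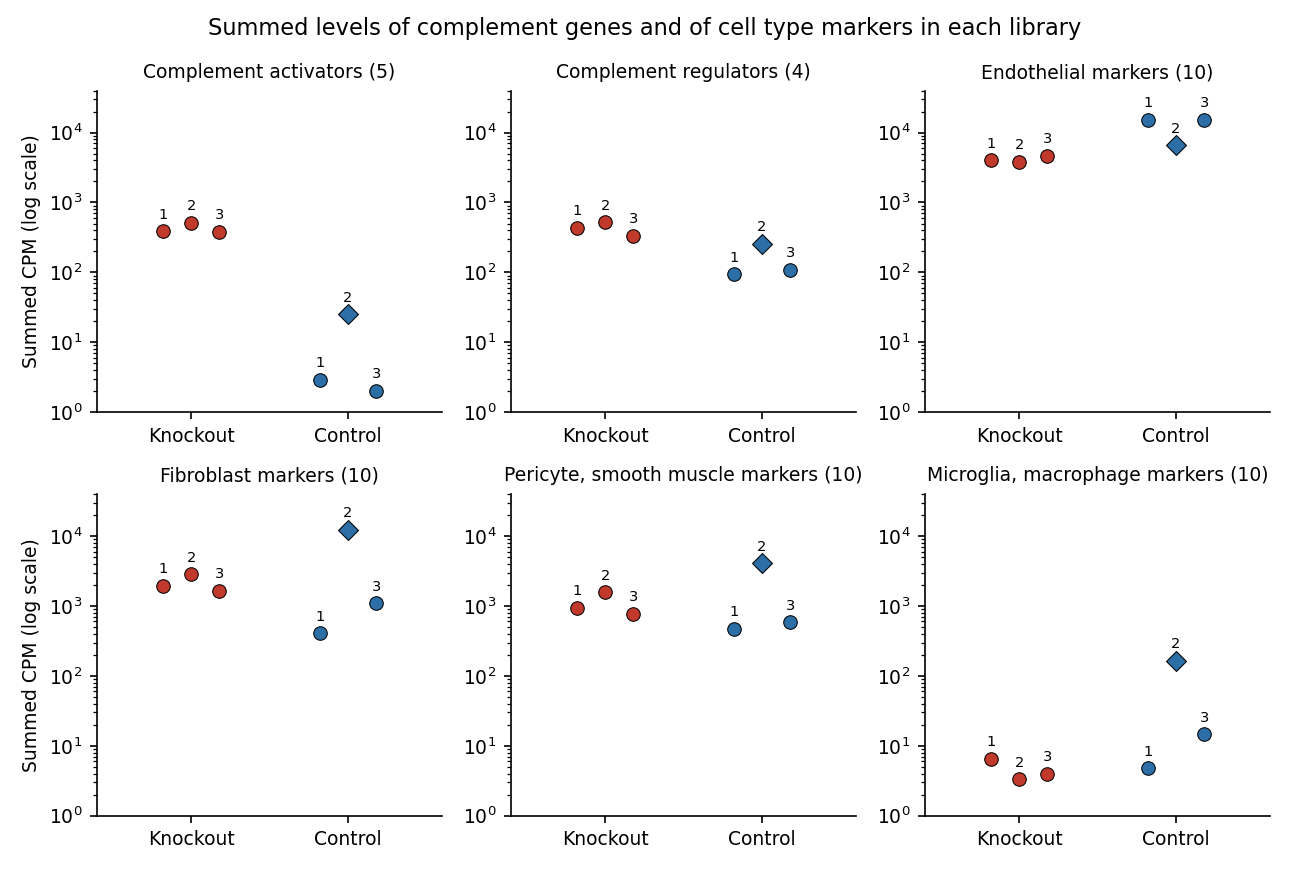
Summed CPM (log axis) of the 5 complement activators, the 4 regulators and 4 lists of 10 cell type markers in each library, with knockouts in red at the left, controls in blue at the right, replicate numbers above the points and control 2 as a diamond. Activator sums are 379 to 515 CPM in knockouts and at most 25.2 CPM in controls, whereas the fibroblast and pericyte sums are highest in control 2.

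Genes with the profile most like that of C3 were ranked by Pearson correlation of log2(CPM + 1) over the 6 libraries. The ranking covered 9100 tested genes averaging 10 CPM or more, and left out provisional symbols such as Gm and Rik names. The first 5 were Tmtc1 (r = 0.9995), Irak3 (r = 0.9994), Prkd1 (r = 0.9991), Cntnap1 (r = 0.9989) and Fam168a (r = 0.9988). The 6 points fall into the study's groups, so r mainly reflects the difference between them and the place of control 2. On the same measure C1ra had r = 0.986, C1s1 0.967, Cfb 0.963, C4b 0.923, Clu 0.865, Serping1 0.527, Cd59a 0.0864 and Cd55 -0.812 with C3. Tmtc1 had 35.9, 40.2 and 35.0 CPM in knockouts, against 2.27, 6.43 and 1.75 CPM in controls. Irak3, a brake on Toll-like receptor signalling, had 30.5, 35.0 and 32.7 CPM in knockouts, against 6.85, 10.9 and 6.14 CPM in controls.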

How the data were processed

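Per the labels' protocols, libraries came from polyadenylated RNA, and the kit was either TruSeq RNA v2 or the stranded TruSeq mRNA kit, with no word on which. The authors deposited whole-number counts per Ensembl gene (52636 identifiers, 6 libraries), and these entered unchanged. The submitters' processing notes name STAR 2.7.6a, FastQC 0.11.5 and GRCm38. How reads were counted, with which annotation and strand setting, is not given in the sources used here. GENCODE M21 gave symbols for 52489 identifiers, and the other 147 held at most 0.00608% of a library.

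In R 4.3.3, edgeR 4.0.16 compared 3 knockout with 3 control libraries (filterByExpr, TMM, quasi-likelihood F test, Benjamini-Hochberg over 13901 genes, no covariate). The standard error is the log2 fold change over the square root of F. No libraries agreed within sampling noise (lowest chi-square per degree of freedom 5.80). Intervals (95%, exact binomial) and floors (3 counts) cover counting error only. CPM per kb used merged exon lengths. Promoter sequences are RefSeq's.

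Members and gene lists were chosen with earlier results of these data known. Named genes were the 9 members, their copies, the called genes of the other lists with a mean of at least 5 CPM (at most 4 per list), 5 genes most like C3, and Erg and Fli1. Alternatives were RLE, upper-quartile or no scaling, DESeq2 1.42.0, limma voom 3.58.1, other filters, a replicate block, a sex term, an adjusted p under 0.01 and each library left out. A complement gene of the wider list is not reported here.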

Additional observations from a re-analysis of the deposited data

How the results depend on the processing

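C3, Cfb and Clu kept their direction and call in all 16 alternatives. The calls of C1ra and Cd55 did not survive an adjusted p under 0.01, where 3 members were called (1 regulator), 1 other complement gene and 1256 genes in all. With each library left out in turn, the counts were 1351 to 7128 for all genes, 2 to 5 for the activators, 1 to 3 for the regulators, 3 to 8 for the members and 1 to 10 for other complement genes, each highest without control 2. C1s1 passed with limma voom (log2 fold change 6.64). Serping1, not called with all libraries, turned positive with limma voom (1.12), the replicate block (1.15) and the sex term (0.29), and ranged from -0.91 to 2.52 with 1 library left out. Cd59a ranged from -0.14 to 0.295 with 1 library left out, and was 0.36 with the sex term. With the replicate block 1844 genes were called and Cd55 missed the threshold (edgeR adjusted p = 0.0641), leaving 1 regulator. Deviations of same-numbered libraries correlated at -0.188, 0.186 and 0.319, and those of control 1 with knockout 3 at 0.375. With control 2 apart, the deviations of controls 1 and 3 from the control mean are alike, so these values cannot decide on pairing. The numbers were not read as pairs, as the sources do not say which libraries belong together. With library size alone, 2501 genes were higher and 1268 lower, against 1816 and 1621 after TMM. Causes were not tested. At this depth, genes under about 3 counts a library cannot be told from 0. That covers Cfb in the controls and C4b in controls 1 and 3, so their ratios are known only within the wide counting intervals given.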
